A study of Mus musculus with 7 samples.

Results

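Surface mucous pit cells were examined among single cells of the gastric epithelium of C57BL/6 mice, profiled on 384-well plates by SORT-seq, in which a sorter places 1 living cell in each well and transcripts are counted by unique molecular identifiers (UMIs). Pit wells were chosen by their transcripts. A well had to hold at least 1000 UMIs, at least 10% of them from Tff1, Gkn1, Gkn2 and Muc5ac together, and a UMI of fewer than 4 of 10 cell cycle genes. This selected 322 of 2235 kept wells (14.4%), and the other 1913 kept wells, among them wells of other cell types, wells just under the threshold and cycling wells that reached it, are the set they are described against. The pylorus, the outlet of the stomach, had 3 plates with 163 pit wells of 983 kept wells, and the corpus, its acid-producing body, had 4 plates with 159 of 1252. All plates are labelled wild type, and no treatment is named. The labels give no age, sex or number of mice, so p-values measure only the spread between plates, which may be technical. Glands were pressed out of chelated tissue, digested to single cells and sorted as DAPI-negative cells, with no marker for pit cells.

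Pit cells line the gastric surface and its pits. They secrete the gel-forming mucin Muc5ac, the trefoil peptide Tff1 and the gastrokines Gkn1 and Gkn2, which take part in the mucus that shields the surface from acid. They arise from progenitors in the isthmus of the gland and mature as they move towards the lumen, where they are shed.

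The transcripts of the gastrokine genes, which are neighbours, varied together from well to well. So did those of Gkn2 and Tff1, which lies on chromosome 17. Spearman's rho between the shares of Gkn1 and Gkn2 was 0.45 to 0.86 over the pit wells of the 6 plates with at least 10 of them (median 0.70), and that between Tff1 and Gkn2 was 0.21 to 0.85 (median 0.75). Muc5ac showed little of this, with rho between -0.30 and 0.19 with Tff1 and between -0.36 and 0.025 with Gkn2. These are descriptions over 38 to 62 wells that share a library and were selected on the sum of these genes. High counts of Tff1, Gkn1 and Gkn2 were also compressed, as given below, while 0 pit wells held more than 2048 UMIs of Muc5ac. Corpus replicate 1, with 1 of 38 pit wells over 2048 for any of these genes, had the lowest rho for both pairs. Corpus replicate 4, with 42 of 51, had the highest. The part of this compression in the correlations, and in their contrast with Muc5ac, was not tested. In RefSeq's annotation of GRCm38.p6 both gastrokines lie on chromosome 6, with starts 22450 bases apart, transcribed away from each other. Their promoter windows, 250 bases before to 50 after the start, are shown as a description. Whether position or promoter has a part in the correlations was not tested. Capitals mark matches to the GATA-type motif AGATAA and to the TATA box motif TATAAA, each searched on both strands, and no matches overlap.
Gkn1, minus strand, chr6:87350866-87351165: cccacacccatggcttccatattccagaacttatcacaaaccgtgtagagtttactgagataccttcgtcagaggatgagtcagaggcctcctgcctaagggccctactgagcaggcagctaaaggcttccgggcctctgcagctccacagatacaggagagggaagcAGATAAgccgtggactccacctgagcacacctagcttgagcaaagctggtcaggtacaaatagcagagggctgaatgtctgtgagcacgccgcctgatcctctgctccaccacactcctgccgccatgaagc
Gkn2, plus strand, chr6:87373115-87373414: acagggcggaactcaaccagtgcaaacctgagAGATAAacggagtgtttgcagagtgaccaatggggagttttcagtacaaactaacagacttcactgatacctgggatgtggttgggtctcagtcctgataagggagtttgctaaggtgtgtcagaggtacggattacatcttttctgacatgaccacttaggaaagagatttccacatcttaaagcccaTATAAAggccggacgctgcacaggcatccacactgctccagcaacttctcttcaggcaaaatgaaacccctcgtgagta
AGATAA begins 82 bases before the start of Gkn1 and 218 before that of Gkn2, and occurs in 11.2% of 32851 RefSeq windows of the same length. TATAAA begins 29 bases before the start of Gkn2, is not in the Gkn1 window, and occurs in 13.6% of windows. The forkhead motif TGTTTAC, found in 3.65%, is in neither. A match is a description of letters and not a site. Of the 7 pit markers, 4 had a window. The deposited tables were made with mm9, so no coordinate of these windows was joined to them.

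Plates differed in ways that their labels do not give. Spike-in RNAs took 6.55% of the UMIs of pylorus replicate 1 and 4.27% of those of corpus replicate 1, against 0.256 to 0.426% in the other 5 plates. The same plates were shallow, with 11439 and 8354 UMIs in the median pit well against 30842 to 37519. Corpus replicate 2 held 868 UMIs of Y-linked genes and none of Xist, while the other 6 plates held 381 to 2753 of Xist and at most 1 of a Y-linked gene. It had only 8 pit wells, under the minimum of 10 for the fits, so its values are given but it entered no fit. Gast, the gastrin gene, normally a product of antral G cells, had 31 UMIs in 19 of 38 pit wells and 3309 in other wells of corpus replicate 1, and 0 in kept wells of every other plate, those labelled pylorus included. Region results are therefore also given without corpus replicate 1.

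Tff1, Gkn1 and Gkn2 made up nearly all of the UMIs that chose the wells, and Muc5ac few. Tff1 stood at 69175, 68152 and 64091 counts per 1000000 UMIs (CPM) in pit wells of pylorus replicates 1 to 3 and at 62679, 56929, 67577 and 69751 CPM in those of corpus replicates 1 to 4. Gkn2 stood at 91582, 68035 and 61139.6 CPM in the pylorus and at 64707, 58050.4, 59427 and 60882 CPM in the corpus, and Gkn1 at 49269.7, 42731 and 44853 against 28830.4, 34692, 37426 and 41354 CPM. All 3 had a UMI in 322 of 322 pit wells. Muc5ac reached 4805, 868 and 1046 CPM in the pylorus and 4423, 2255, 2265 and 1972 CPM in the corpus, highest in the shallow plate of each region. Of the 4 genes' UMIs, Tff1 took 32.2 to 40.5%, Gkn2 34.998 to 42.6%, Gkn1 17.9 to 26.2% and Muc5ac 0.483 to 2.75% over the 7 plates. High counts were compressed, since UMIs of 6 bases run out: 159 of the 322 pit wells held more than 2048 of Tff1, Gkn1 or Gkn2. Corrected for that, the sum of the 4 genes was 1.15 to 1.55 times the counted one.

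**Figure D1:**
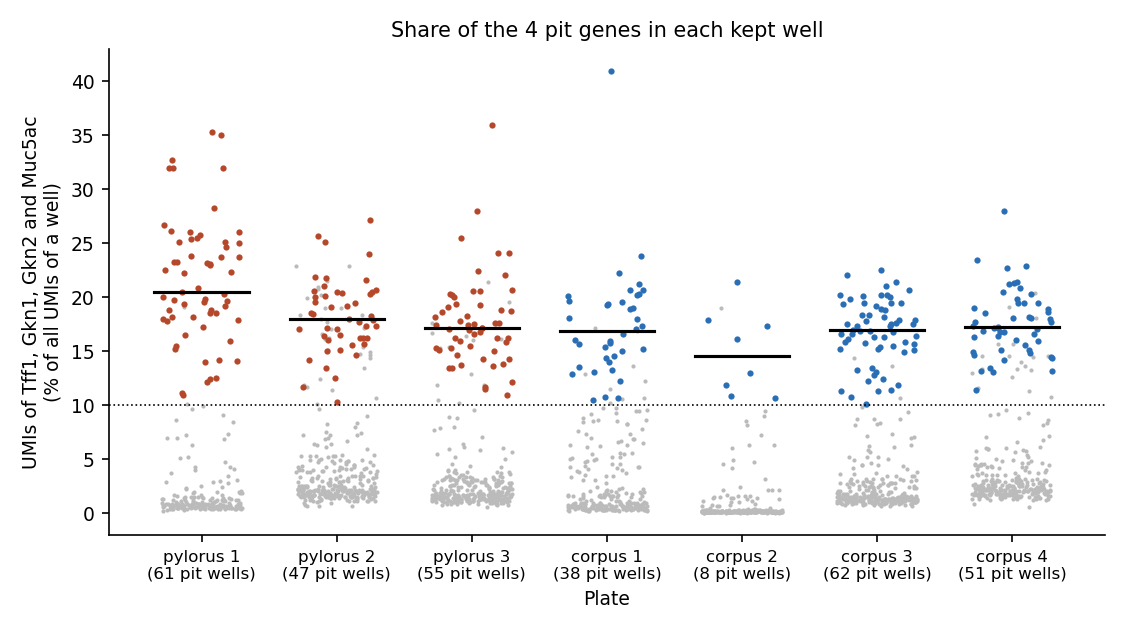
Share of all UMIs of a well (%) from Tff1, Gkn1, Gkn2 and Muc5ac, for every kept well of the 3 pylorus and 4 corpus plates. Coloured points are pit wells with their median as a bar, grey points other kept wells, and grey points above the dotted 10% line held at least 4 of the cell cycle genes. Medians of pit wells lie between 14.6 and 20.5%.

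Markers that the rule did not use were also high in these wells. Dpcr1, a mucin-like membrane protein, stood at 2561 to 6577 CPM in pit wells of the 7 plates and 303 to 2017 CPM in other wells. Capn9, a gastric calpain, stood at 109.7 to 209 CPM in pit wells and 6.399 to 22.7 CPM in other wells, and neither gene overlapped. Psca, a membrane-anchored antigen, did overlap, at 2157 to 4552 CPM in pit wells and 593 to 5015 CPM in other wells, and was lower in the pit wells of corpus replicate 2. With every well thinned to 1000 UMIs, Dpcr1 was seen in 86.8 to 94.5% of pit wells and 9.59 to 41.6% of other wells, and Capn9 in 5.45 to 25% and 0.334 to 2.84%. Unthinned, the shares with a UMI of Dpcr1 were 97.4 to 100% and 38.01 to 94.3%. The median pit well held 1.25 to 1.704 times the UMIs of the median other well of its plate, and 1.24 to 2.04 times as many per spike-in UMI.

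Markers of other cell types summed to less in pit wells than in other wells, except those of neck and intestinal cells in some plates. The 9 parietal markers, among them the acid pump genes Atp4a and Atp4b, summed to 30.03 to 763 CPM, which is 6.53 to 14.7% of the sum in other wells of the same plate. The 9 endocrine markers summed to 462 to 2077 CPM (6.62 to 24.03%), the 7 tuft markers to 7.38 to 41.2 CPM (8.32 to 32.8%) and the 8 immune markers to at most 19.6 CPM. The 10 proliferation markers, all used by the rule, summed to 42.5 to 148 CPM. Mast cell markers reached 130.1 CPM with Fcer1a at 0, stromal markers 4.92 CPM with Lum at 0, endothelial markers 2.96 CPM with Kdr and Emcn at 0, and squamous forestomach markers 2.46 CPM with Krt14 at 0 in every plate. The 7 intestinal markers summed to 399 CPM in pit wells and 86.1 CPM in other wells of corpus replicate 1, to 41.3 and 13.8 CPM in pylorus replicate 1, and to at most 26.1 CPM in pit wells of the other 5 plates, where they were lower than in other wells. The one red blood cell marker in the tables, Alas2, was at 0. Chief and neck markers were the most abundant. Pgc, the pepsinogen of chief cells, stood at 8991 to 52153 CPM in pit wells and 41578 to 137535 CPM in other wells, and was seen in all wells of both kinds after thinning. Gif, a chief cell product in mice, stood at 84.5 to 193 CPM in pit wells and 999.6 to 5223 CPM in other wells. Neck markers summed to 45.9 to 269.7% of the other wells through Tff2, while Muc6, the mucin of neck and gland cells, stood at 4.07 to 46.8 CPM in pit wells and 54.9 to 372 CPM in other wells. The source of these transcripts in pit wells was not tested.

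Few wells lay near the 10% threshold. Between 10 and 12%, 20 wells fell just inside, and between 8 and 10%, 28 wells fell just outside, while 257 of the 322 pit wells reached 15%. Levels in this paragraph are means of each well's own CPM with all plates pooled. Wells from pylorus and corpus numbered 7 and 13 just inside, 7 and 21 just outside, and 137 and 120 at 15% or more. Differences between these groups are therefore mixed with region and plate. The 20 wells inside held 3271 CPM of Dpcr1, 35.5 of Capn9 and 1662 of Psca, against 2537, 12.8 and 1478 CPM in the 28 wells outside. The 257 wells held 4202, 161 and 3115 CPM. Tff2 ran the other way, with 13631 CPM just inside, 16473 just outside and 5304 in the 257 wells. A further 83 wells reached 10% but held at least 4 of the cell cycle genes and were not taken as pit wells.

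Genes with large ratios over other wells included those of a calpain, a gasdermin and an iodide symporter. Over the 6 plates with at least 10 pit wells, 1047 of 7464 genes averaging at least 10 CPM (14%) were higher in pit wells than in other wells in every plate, and 2164 (29%) were lower in every plate. No test was made, since the same transcripts chose the wells. Ratios below are medians over the 6 plates of log2 ratios of CPM + 2, and levels are means over plates. Among genes averaging at least 100 CPM in pit wells, Capn9 had the largest ratio, 3.48, with plates from 2.18 to 3.91. Gsdma2, of the pore-forming gasdermins, averaged 3562 CPM in pit wells and 472 CPM in other wells (3.15). Lypd8, a membrane-anchored protein that binds flagellated bacteria in the mouse colon, averaged 1651 and 312 CPM (2.85), and the Rab15 effector Rep15 150.4 and 15.04 CPM (3.06). Sptssb, a subunit of the enzyme that starts sphingolipid synthesis, averaged 1146 and 164 CPM (2.71), Mal, a proteolipid of apical transport, 468 and 87.7 CPM (2.37), and Slc5a5, the sodium-iodide symporter, 312 and 49.2 CPM (2.67). Others among the 25 genes with the largest ratios at that level were Sectm1b (3.41), 2210407C18Rik (3.08), Fhl1 (2.83), Gm3336 (2.43), Oasl1 (2.31), Igsf9 (2.13), Lgals4 (2.12) and Ptgr1 (2.01).

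Genes furthest below the other wells included products of other cell types. Slc18a2, the amine transporter of enterochromaffin-like cells, averaged 11.6 CPM in pit wells and 228 CPM in other wells (-4.09). The vitamin D binding protein gene Gc averaged 6.77 and 146 CPM (-4.04), the stress-response gene Nupr1 19.7 and 388 CPM (-3.97), Atp4a 41.2 and 608 CPM (-3.96) and Gif 118 and 1919 CPM (-3.70). The remaining 5 of the 10 were Pnliprp2 (-3.72), Cel (-3.67), Pnliprp1 (-3.64), Gm12888 (-3.64) and Spp1 (-3.63).

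**Figure D2:**
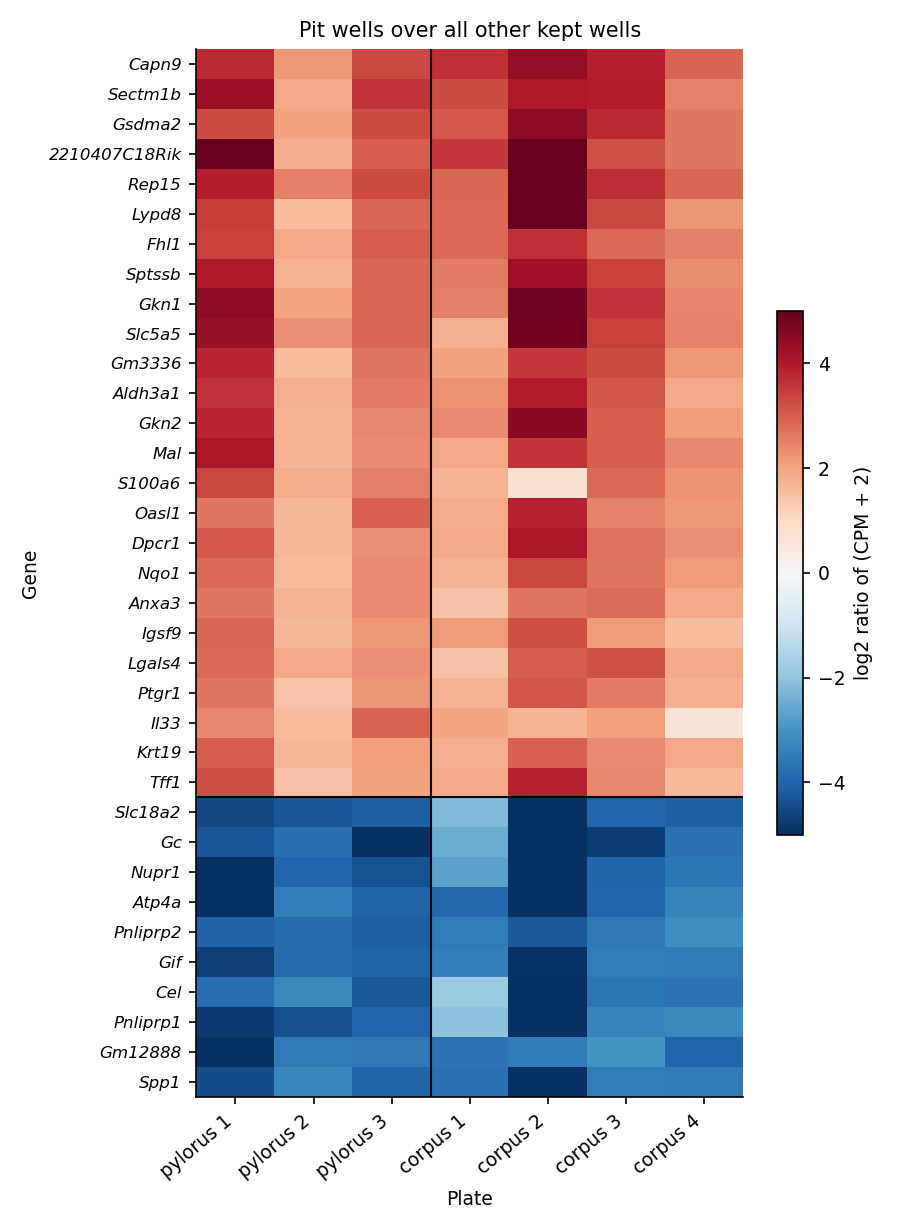
Log2 ratio of CPM + 2 in pit wells over all other kept wells, by plate, for the 25 genes furthest above and the 10 furthest below 0 by their median over 6 plates, among genes averaging at least 100 CPM in pit wells (above) or other wells (below), with colours ending at 5 and -5. Corpus replicate 2, with 8 pit wells, was not used to pick the genes. Capn9 heads the genes above at 3.48 and Slc18a2 the genes below at -4.09.

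Keratins and apical cytoskeleton had 15 of 22 members higher in pit wells in every plate and 1 lower, with a median ratio of 1.03 against -0.15 over all 7464 genes. The counts of this and the following lists stand against the 14% higher and 29% lower over all genes. Krt19, a keratin of simple epithelium, averaged 1794 CPM in pit wells and 423 CPM in other wells (1.99), Krt8 3060.3 and 1189 CPM (1.33), and the actin-binding peptide gene Tmsb4x 4333 and 2169 CPM (0.94). The calcium-binding S100a6 averaged 845 and 193 CPM (2.37), the annexin Anxa3 239 and 55.9 CPM (2.14), the gastric calpain Capn8 29.9 and 2.84 CPM (2.61) and the brush border myosin Myo1a 93.1 and 25.4 CPM (2.01). Eps8, an actin-capping protein, was lower, at 14.95 and 29.5 CPM (-1.32).

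Detoxification and redox genes had 14 of 23 members higher, 1 lower and a median ratio of 0.55. The glutathione transferases Gsta4 and Gsto1 averaged 4815 CPM in pit wells and 1802 CPM in other wells (1.53) and 3298 and 1006 CPM (1.77). The aldehyde dehydrogenase Aldh3a1 averaged 952 and 176 CPM (2.42) and the quinone reductase Nqo1 504 and 113 CPM (2.24). Of the alcohol dehydrogenases, Adh7, the stomach form, averaged 249.7 and 71.2 CPM (1.79) and Adh1 70.5 and 262 CPM (-1.84).

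Secreted products and surface mucins had 7 of 8 members higher, 4 of them rule genes. Outside the rule these were Dpcr1, Psca and the membrane mucin Muc1, which averaged 570.1 CPM in pit wells and 385 CPM in other wells (0.59). The trefoil peptide Tff2, a product of neck cells, was the lower one, at 6166 and 9329 CPM (-0.50). Of 22 mucin glycosylation genes, 4 were higher and 6 lower, shares near the 14% and 29% of all genes. The O-glycan branching enzyme Gcnt3 averaged 530.1 and 328 CPM (0.82) and the fucosyltransferase Fut4 47.6 and 18.3 CPM (1.30), whereas Gcnt1 averaged 2.43 and 22.4 CPM (-2.54) and Fut9 1.94 and 19.5 CPM (-1.84).

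Secretory pathway genes had 27 of 41 members lower in pit wells in every plate and 0 higher, with a median ratio of -0.51. The chaperone Hspa5 averaged 470.3 CPM in pit wells and 947 CPM in other wells (-1.05), the disulfide isomerase Agr2 453 and 928 CPM (-0.98) and Xbp1, a transcription factor of secretory cells, 339 and 695 CPM (-1.04). CPM include the 4 rule genes, which took 14.6 to 20.5% of the UMIs of the median pit well and 0.156 to 2.34% of those of the median other well.

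Transcription factors of gastric epithelium had 9 of 25 members higher and 8 lower, against 14% and 29% of all genes. Klf4, a factor of postmitotic surface epithelium, averaged 1138 CPM in pit wells and 409 CPM in other wells (1.57), and Foxq1, needed for Muc5ac in the mouse stomach, 468 and 256 CPM (0.84). Elf3, Klf3, Klf6, Hnf4a, Foxa3, Sox21 and Gata5 were higher too. Esrrg, a factor of parietal cells, averaged 7.898 and 107 CPM (-3.36), Spdef, a factor of mucous cells, 16.6 and 57.4 CPM (-1.63) and the homeobox gene Nkx6-2 7.12 and 24.5 CPM (-2.05).

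Growth factor genes had 5 of 12 members higher and 5 lower. The hedgehog ligand Shh averaged 62.9 CPM in pit wells and 6.996 CPM in other wells (2.94), Bmp2 99.5 and 37.2 CPM (1.40) and Tgfa, a ligand of the EGF receptor, 16.5 and 5.62 CPM (1.16). Vegfa averaged 25.6 and 64.8 CPM (-1.21) and Lrig1, a feedback inhibitor of EGF receptors, 6.46 and 42.9 CPM (-2.43). In the mucosal defence list (3 higher and 4 lower of 8), the cytokine genes Il33 and Il18 averaged 112 CPM in pit wells and 25.6 CPM in other wells (2.00) and 179 and 58.4 CPM (1.68). Bpifb1, a secreted BPI-fold protein, averaged 22.3 and 156 CPM (-2.72) and Pigr, the antibody transporter, 33.4 and 80.8 CPM (-1.66).

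Ion and bicarbonate transport genes had 4 of 17 higher and 4 lower, with the carbonic anhydrase Car2 at 3928 CPM in pit wells and 2104 CPM in other wells (0.85) and the bicarbonate cotransporter Slc4a4 at 78.4 and 33.5 CPM (1.25). Tight junction genes had 5 of 10 higher and 0 lower, among them the gastric claudin Cldn18 at 1094 and 752 CPM (0.55). Hypoxia and glycolysis genes had 8 of 16 higher and 4 lower, lipid and sterol genes 7 of 18 and 5, antigen presentation genes 1 of 7 and 0, and interferon-induced genes 2 of 13 and 2. Dissociation stress genes, a sign of handling, were lower in pit wells for 15 of 18 members and higher for 0, with a median ratio of -0.92, and Fos averaged 206 CPM in pit wells and 430.5 CPM in other wells (-1.22). Mitochondrially encoded transcripts were lower for 6 of 13 and higher for 0, and took 11.01 to 15.6% of the UMIs of pit wells and 11.95 to 21.8% of those of other wells.

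**Figure D3:**
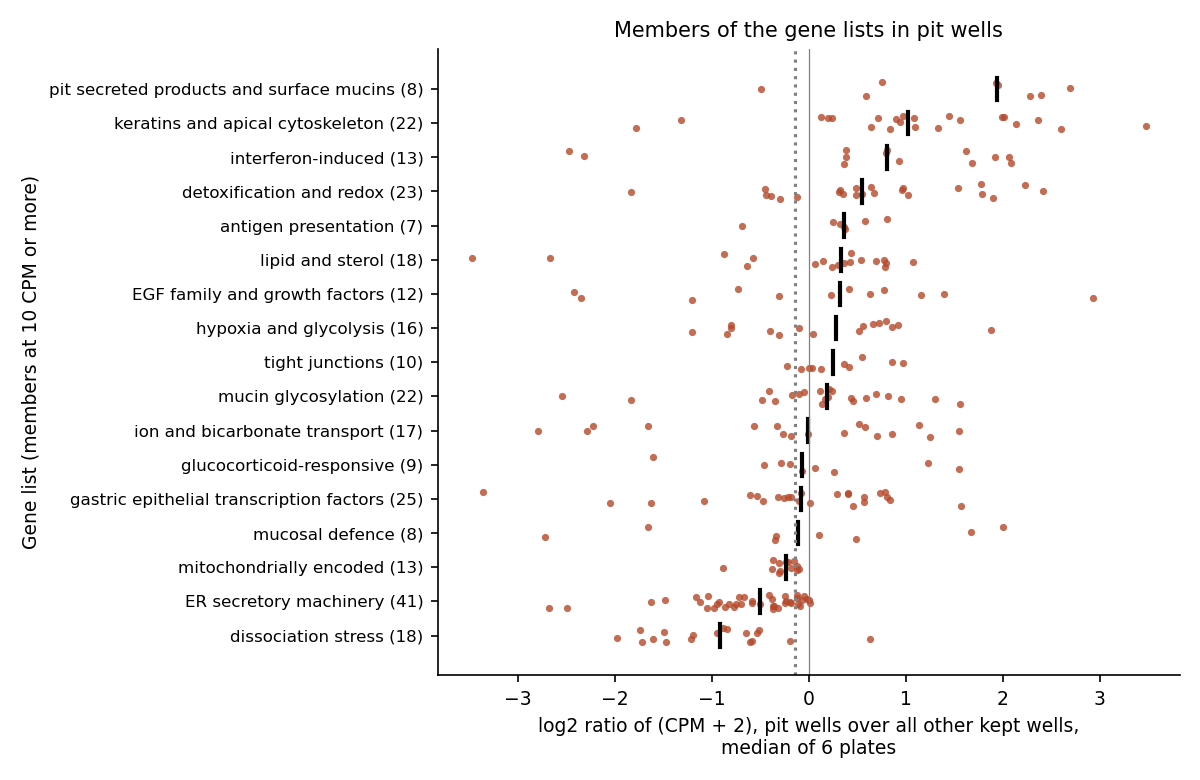
Members of the gene lists averaging at least 10 CPM, each as its median over 6 plates of the log2 ratio of CPM + 2 in pit wells over other kept wells. Bars are list medians and the dotted line is the median of all genes (-0.15). Keratins and apical cytoskeleton lie at 1.03, secretory pathway genes at -0.51 and dissociation stress genes at -0.92.

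Within the pit wells, a gradient ran between wells rich and poor in the 4 rule genes. In each of the 6 plates, wells at or above the plate's median share were set against those below it, on CPM computed without the 4 genes. The rich wells had median shares of 19.2 to 25.1% and the poor wells 14.3 to 17.9%. Of 1134 genes with at least 100 CPM in pit wells, 99 (8.73%) were higher in the rich wells in all 6 plates and 81 (7.14%) lower in all 6. No test was made, because the split uses the rule's own measure. Several genes with large ratios over other wells also followed this gradient. Lypd8 stood at 482, 3466 and 4212 CPM in the rich wells of the 3 pylorus plates and 663, 3535 and 3803 CPM in those of the 3 corpus plates, against 226, 1742 and 2113 CPM and 591, 1647 and 2109.7 CPM in the poor wells (median log2 ratio 0.99). Capn9 stood at 307, 218 and 242 CPM and 276, 272 and 273 CPM in the rich wells, against 192, 57.2 and 101 CPM and 236, 143 and 167 CPM in the poor wells (0.81). The other 8 of the 10 highest were Rep15 (0.95), Sectm1b (0.95), 2210407C18Rik (0.70), Nt5e (0.68), Oasl1 (0.65), Hsd17b11 (0.64), Mllt3 (0.64) and Mal (0.63).

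Tff2 and Dmbt1, a secreted scavenger receptor gene, stood at the other end. Tff2 stood at 4455, 5587 and 4003 CPM in the rich wells of the 3 pylorus plates and 11833, 2437 and 3898 CPM in those of the 3 corpus plates, against 12395, 10926 and 6361 CPM and 14134, 5478 and 6637 CPM in the poor wells (-0.87). Across single wells, rho between Tff2 and Gkn2 was -0.65 to -0.21 and that between Tff2 and Psca -0.62 to -0.41, over wells that share a library. Gkn2 is a rule gene, so its rho with Tff2 largely repeats the split by 4-gene share and is no separate support. The other 9 of the 10 lowest were Dmbt1 (-0.99), Gstm1 (-0.76), Acat1 (-0.60), Hspd1 (-0.57), Anp32b (-0.54), Npm1 (-0.50), Macf1 (-0.50), Zfp36l2 (-0.50) and Rplp0 (-0.49), among them the nucleolar protein gene Npm1, the mitochondrial chaperonin gene Hspd1 and the glutathione transferase Gstm1. Of 66 cytoplasmic ribosomal protein genes, a list picked after the values were seen, 27 were lower in all 6 plates and 0 higher, with a median ratio of -0.27 against 0.011 over all 1134 genes. Their share of UMIs was 4.34 to 7.69% in the rich wells and 5.58 to 8.58% in the poor wells, lower in the rich wells of 5 plates and not of corpus replicate 1 (7.69 and 7.47%). The median rich well held more UMIs than the median poor well in pylorus replicates 1 and 2 and fewer in the other 4 plates.

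**Figure D4:**
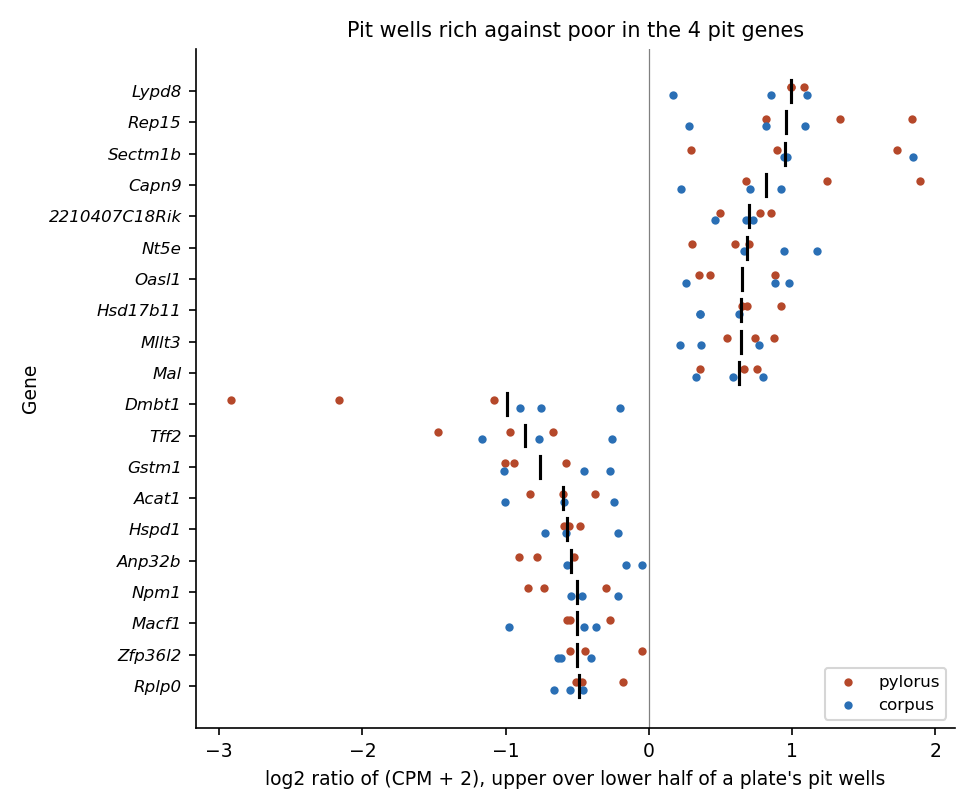
Log2 ratio of CPM + 2, computed without Tff1, Gkn1, Gkn2 and Muc5ac, in pit wells at or above a plate's median 4-gene share (upper) over those below it (lower). Points are 3 pylorus and 3 corpus plates and bars their medians, for the 10 genes with the highest and the 10 with the lowest medians. Lypd8 lies at 0.99 and Dmbt1 at -0.99.

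The share of pit wells was compared between the regions. Pit wells made up 24.4, 12.9 and 14.9% of kept wells in pylorus replicates 1 to 3 and 13.7, 2.87, 17.2 and 15.3% in corpus replicates 1 to 4. The ranges overlapped, with a Wilson 95% interval of 19.5 to 30.1% for the highest share and 1.46 to 5.56% for the lowest, covering counting error only. The means were 17.4% ± 6.14 in the pylorus (SD, n = 3) and 12.2% ± 6.41 in the corpus (SD, n = 4), with p = 0.486 in an exact two-sided permutation test over 35 splits of the plates (smallest possible p 0.0286). The median 4-gene share of a pit well was 18.5% ± 1.72 in the pylorus and 17.03% ± 0.232 in the corpus (SD, n = 3 each). The median share of Muc5ac within the 4 genes was 0.803% ± 0.661 and 1.503% ± 0.547 (SD, n = 3 each). The rule chose the wells on these 4 genes, so both values are descriptions with no test. With wells that held cell cycle genes added, the shares of pit wells were 25.2, 21.7 and 19.2% in the pylorus and 17.3, 3.23, 18.01 and 20.96% in the corpus. In the 4 plates without high spike-in shares that entered the fits, the difference had the other sign, at -2.31 percentage points, against 2.14 when corpus replicate 2 was included. With the threshold at 20% the difference was 4.61 percentage points. Its exact permutation p of 0.0286 is the smallest that 35 splits allow, is unadjusted and comes from 1 of several alternative settings. A higher threshold also sorts the wells by the rule's own measure, so no conclusion is drawn from it.

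Sgk1, a kinase that promotes epithelial sodium transport, had the smallest p between pit wells of the regions. It stood at 254, 367 and 341 CPM in the pylorus and at 34.5, 62.7 and 51.7 CPM in corpus replicates 1, 3 and 4. The pylorus values all lay above these. The 8 pit wells of corpus replicate 2, the plate with Y-linked transcripts, stood at 302 CPM, within the pylorus range, with 79 UMIs in 4 of the wells. The log2 difference without that plate was 2.64 ± 0.31 (SE, n = 3 plates each, adjusted p = 0.0914, limma). Of 8079 genes tested over the 6 plates, 0 passed at an adjusted p of 0.05 in either direction (0%), with 221 at an unadjusted p under 0.05 in limma and 1 passing with voom weights. These 221 are a smaller share of the genes tested than the 0.05 that would be met if no gene differed. Adding the plate set as a covariate, which separates pylorus 1 and corpus 1 from the other 4 plates, gave 24 genes higher (0.297%) and 12 lower (0.149%) in the pylorus, and Sgk1 rose by 2.64 ± 0.15 (adjusted p = 1.61e-07, limma). Without corpus replicate 1, the genes that passed were Sgk1 (2.31 ± 0.22, adjusted p = 0.00781) and Il33 (3.25 ± 0.30, adjusted p = 0.00781). With the threshold at 5%, where corpus replicate 2 had enough wells to enter, the Sgk1 difference was 2.22 and did not pass (adjusted p = 0.999).

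In other wells Sgk1 stood at 13.8, 105 and 62.5 CPM in the pylorus and 12.7, 9.07, 79.9 and 59.7 CPM in the corpus, and the ranges overlapped. The region difference of pit wells less that of other wells was 2.46 ± 0.54 over the 6 plates (adjusted p = 0.905, limma). No gene passed that test (0% in each direction, with 357 at an unadjusted p under 0.05 in limma and 0 passing with voom weights). The 357 are likewise a smaller share of the 8079 genes tested than 0.05. With plate set as a covariate the Sgk1 difference passed (2.46 ± 0.20, adjusted p = 0.00179). In the 4 similar plates alone 2 of 8374 genes passed, both higher (0.0239%, against 0% lower): Sgk1 (2.36 ± 0.20, adjusted p = 5.22e-05) and Znfx1, a zinc finger gene (1.81 ± 0.28, adjusted p = 0.0486), named after its values were seen. Znfx1 stood at 10.01, 25.2 and 29.5 CPM in pit wells of the pylorus and 9.84, 0, 8.89 and 5.99 CPM in those of the corpus.

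The other 9 of the 10 genes of smallest p averaging at least 32 CPM in a region did not pass over 6 plates and passed with plate set as a covariate. Dpcr1 stood at 4652, 6431 and 6577 CPM in the pylorus and 2567, 5000.2, 2561 and 3025 CPM in the corpus, so that corpus replicate 2 lay within the pylorus range (1.08 ± 0.25, adjusted p = 0.9998, and 0.00118 with the covariate). In other wells Dpcr1 stood at 557, 2017 and 1342 CPM in the pylorus and 696, 303, 388 and 622 CPM in the corpus. The region difference of Dpcr1 in pit wells less that in other wells was 0.017 ± 0.32 over the 6 plates (adjusted p = 0.994, limma). Il33 stood at 146, 215 and 193 CPM in pit wells of the pylorus and 86.1, 11.5, 22.7 and 10.9 CPM in those of the corpus (2.59 ± 0.51, adjusted p = 0.723, and 0.00337 with the covariate). Of its 4 corpus values in pit wells, that of corpus replicate 1 was nearest to the pylorus. Other wells parted in the same way for Il33, at 26.4, 72.0 and 24.3 CPM in the pylorus and 20.6, 2.13, 4.01 and 6.28 CPM in the corpus. The region difference of Il33 in pit wells less that in other wells was 0.69 ± 0.40 over the 6 plates (adjusted p = 0.905, limma). Vars2, a mitochondrial tRNA synthetase gene, stood at 171, 149 and 128 CPM against 61.5, 111, 54.3 and 38.6 CPM (1.497 ± 0.20, adjusted p = 0.114, and 0.000337 with the covariate). Gstm1 stood at 330.4, 416 and 341 CPM against 756, 498, 562 and 600.3 CPM (-0.83 ± 0.17, adjusted p = 0.723, and 0.00395 with the covariate). The regions did not overlap for Il33, Vars2 and Gstm1 over all 7 plates, as for 4.68% of all genes tested. The remaining 5 were the lysosomal protease Ctsl (1.57 ± 0.26), Emp1 (1.05 ± 0.22), the lipid flippase Atp8a1 (-1.11 ± 0.22), Ccdc141 (-1.01 ± 0.20) and Lbh (-1.61 ± 0.37), with adjusted p from 0.371 to 0.9998 over 6 plates and from 0.00104 to 0.0194 with the covariate.

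The homeobox gene Meis2 stood at 6.26, 6.82 and 6.61 CPM in the pylorus and 41.8, 26.8, 23.7 and 28.3 CPM in the corpus, with no overlap over all 7 plates (-1.94 ± 0.27, adjusted p = 0.114, and 0.00222 with the covariate). The pylorus values rest on only 5, 10 and 13 UMIs. Other wells parted in the same way, at 9.91, 7.07 and 6.65 CPM in the pylorus and 63.8, 33.8, 26.9 and 21.7 CPM in the corpus. Egln3, an oxygen-sensing hydroxylase gene, rose with the covariate (1.34 ± 0.15, adjusted p = 0.000494), at 100.1, 157 and 201 CPM in the pylorus and 44.3, 68.9, 60.2 and 65.9 CPM in the corpus. For Egln3 the region difference in pit wells less that in other wells was 0.27 ± 0.25 over the 6 plates (adjusted p = 0.911, limma). Of the 36 genes that passed with the covariate, 23 did not overlap between the 3 pylorus and 3 corpus plates of the fit, where 8.89% of all 8079 genes did not (the 36 were picked by p on the same plates), and for 17 of these corpus replicate 2 fell on the corpus side. For Sgk1, Dpcr1, Emp1, Lbh, Cdkn1a and Tfrc it did not.

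No difference was called over 6 plates for the genes below that lie outside the rule. The rule limits how far the levels of its own 4 genes can part, so their differences are descriptions with no test. The log2 difference was -0.011 ± 0.33 for Tff1, 0.34 ± 0.34 for Gkn1, 0.21 ± 0.33 for Gkn2 and -0.75 ± 0.55 for Muc5ac (SE). Outside the rule it was -0.38 ± 0.22 for Capn9, -0.036 ± 0.28 for Psca, 0.46 ± 0.26 for Muc1, 0.054 ± 0.35 for Tff2 and -0.26 ± 0.18 for Foxq1. The adjusted p was 0.9998 for each of these genes outside the rule (limma). The sign for Tff1 and Psca changed with the scaling, and that for Tff2 with the plates left out.

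**Figure D5:**
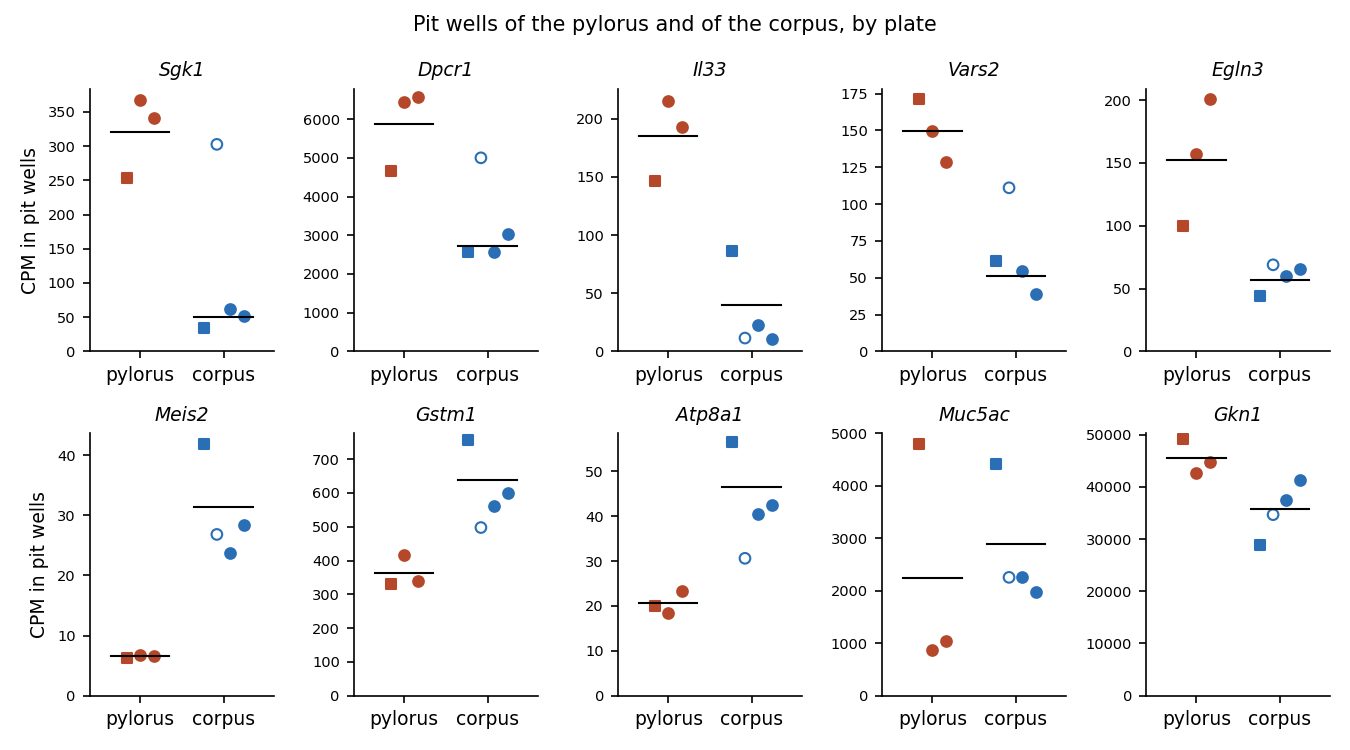
Level in pit wells (CPM) of 10 genes in the 3 pylorus and 4 corpus plates. Squares are pylorus replicate 1 and corpus replicate 1, rich in spike-ins, the open circle is corpus replicate 2, which entered no fit, and lines are means of the 3 fitted plates of a region. Sgk1 lies at 254 CPM or more in the pylorus and at 302 CPM in corpus replicate 2, and Meis2 at 6.82 CPM or less in the pylorus and 23.7 CPM or more in the corpus.

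Pylorus replicates 2 and 3 and corpus replicates 3 and 4, alike in spike-in share and depth, were also compared alone. Of 8374 genes, 109 rose (1.3%) and 99 fell (1.18%) in pit wells of the pylorus. With 2 plates a region these adjusted p-values lean on the spread pooled over genes (41.3 prior degrees of freedom, against 2 from the gene itself). In the plates set aside, pylorus replicate 1 exceeded corpus replicate 1 for 58 of the 109 genes that rose, against 43.1% of all genes tested. It lay below corpus replicate 1 for 67 of the 99 that fell. Since only 43.1% of all genes were higher in pylorus replicate 1, most genes tested were equal or lower there as well. Mucosal defence genes had 5 of 10 members tested rise and 0 fall, with a median log2 difference of 1.22 against -0.0096 over all genes. Counts of members called in this and the following lists stand against the 1.3% that rose and 1.18% that fell over all genes. Bpifb1 stood at 35.4 and 86.5 CPM in the pylorus and 2.96 and 2.72 CPM in the corpus (3.48 ± 0.31, adjusted p = 1.64e-11), and in other wells at 219 and 432 against 25.96 and 32.7 CPM. Its corpus values in pit wells rest on only 6 and 5 UMIs. Pigr stood at 71.6 and 96.7 against 6.91 and 13.1 CPM (2.77 ± 0.23, adjusted p = 3.61e-12), with 0 CPM in pylorus replicate 1 and 12.3 CPM in corpus replicate 1. Wfdc2, Cxcl16 and Il33 were the other 3 that rose.

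Interferon-induced genes had 12 of 18 members tested rise and 0 fall in these 4 plates, with a median log2 difference of 1.08, and were scarcer in the other 3 plates. The 22 members in the tables summed to 110.1, 1171 and 1141 CPM in pit wells of pylorus replicates 1 to 3 and to 83.7, 65.1, 402 and 431 CPM in those of corpus replicates 1 to 4. Ifit1, an antiviral RNA-binding protein gene, stood at 0, 223 and 289.99 CPM in the pylorus and 0, 0, 58.2 and 45.7 CPM in the corpus (2.14 ± 0.15 in the 4 plates, adjusted p = 4.81e-14). In other wells the sum was 141, 429.8 and 346 CPM in the pylorus and 202, 124, 202 and 212 CPM in the corpus. The sum was thus higher in pit wells than in other wells in the 4 similar plates and lower in the other 3, and the part of the plate set in the region difference was not tested beyond these values. Dissociation stress genes had a positive log2 difference for 17 of 17 members in both fits (median 0.50 over 6 plates and 0.36 in the 4), and Fos, Zfp36 and Hspa1a passed in the 4 plates. Mitochondrially encoded transcripts had a negative one for 13 of 13 members in both fits (median -0.14 over 6 plates and -0.24 in the 4), and mtAtp8 and mtNd4l fell in the 4 plates. They took 12.5, 11.01 and 12.6% of the UMIs of pit wells in the pylorus and 13.2, 14.9, 15.6 and 14.4% in the corpus. The part of these signs of handling and RNA quality in the region differences was not tested.

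Of 27 gastric transcription factors tested in the 4 plates, 2 rose and 4 fell, against 1.3% and 1.18% of all genes. The homeobox gene Pitx1 stood at 61.3 and 70.2 CPM in the pylorus and 6.91 and 6.53 CPM in the corpus (2.85 ± 0.24, adjusted p = 3.14e-12), with 26.3 CPM in pylorus replicate 1 and 24.6 CPM in corpus replicate 1. The homeobox gene Irx5 stood at 42.9 and 41.7 against 13.8 and 7.62 CPM (1.74 ± 0.25, adjusted p = 5.12e-06). Nkx6-2 stood at 0.682 and 2.54 against 14.8 and 13.6 CPM (-2.29 ± 0.40, adjusted p = 0.00015), with only 1 and 5 UMIs in the pylorus. Meis2, Klf3 and Foxq1 also fell, with differences of -1.78 ± 0.28, -0.57 ± 0.16 and -0.45 ± 0.12. Other wells showed the same order for Pitx1, at 59.1 and 45.1 against 5.22 and 3.86 CPM, and for Irx5, at 51.3 and 38.6 against 9.902 and 8.85 CPM.

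Among the pit products, Muc5ac was lower in the pylorus in the 4 plates, at 868 and 1046 CPM against 2265 and 1972 CPM in the corpus (-1.27 ± 0.13). The rule chose the wells partly on Muc5ac, so its difference is a description with no test. In the plates set aside it stood at 4805 CPM in pylorus replicate 1 and 4423 CPM in corpus replicate 1. Rep15 fell (-1.23 ± 0.14, adjusted p = 1.58e-08), as did Capn9 (-0.60 ± 0.14, adjusted p = 0.0101), and Dpcr1 rose (1.10 ± 0.13, adjusted p = 7.51e-08). Other wells of these plates held 2017 and 1342 against 388 and 622 CPM of Dpcr1. The region difference in pit wells less that in other wells was -0.52 ± 0.21 for Dpcr1 (adjusted p = 0.560, limma). It was -0.41 ± 0.25 for Rep15 and -0.69 ± 0.31 for Capn9 (adjusted p = 0.710 and 0.608, limma). Of 21 mucin glycosylation genes 3 rose and 0 fell, among them the sulfotransferase gene Chst4, at 29.3 and 22.4 CPM in the pylorus and 1.97 and 1.09 CPM in the corpus (2.90 ± 0.35, adjusted p = 9.83e-08). The corpus values of Chst4 rest on only 4 and 2 UMIs. Keratins and apical cytoskeleton had 2 rises and 1 fall of 22, ion transport 1 and 4 of 15, detoxification 1 and 4 of 23, and secretory pathway genes 0 and 0 of 40. Markers of other cell types were also called. Of 7 parietal markers tested 5 fell (Atp4b, Atp4a, Ckb, Aqp4 and Kcnq1) and 0 rose, and of 5 endocrine markers Ghrl and Hdc rose and Sst fell. Atp4b stood at 76.3 and 139 CPM in pit wells of the pylorus and 516 and 331 CPM in those of the corpus (-2.10 ± 0.18, adjusted p = 3.14e-12), and in other wells at 796 and 1289 against 3562 and 2201 CPM. The region difference of Atp4b in pit wells less that in other wells was -0.52 ± 0.15 (adjusted p = 0.346, limma). Ghrl, the ghrelin gene, stood at 766 and 918 against 248 and 119 CPM in pit wells (2.15 ± 0.17, adjusted p = 6.89e-13), and in other wells at 4182 and 3766 against 1149.9 and 675 CPM, with 0.10 ± 0.16 for the same comparison (adjusted p = 0.904, limma).

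Some transcripts stood higher in pit wells of corpus replicate 1 than in those of any other plate. Fabp2 and Alpi, products of intestinal enterocytes, stood there at 319.95 and 78.8 CPM, against at most 33.8 and 7.08 CPM in pit wells of the other plates. The keratins Krt20 and Krt7 stood at 150.1 and 209 CPM against at most 8.71 and 8.14 CPM, and the secreted protein gene Clca3 at 317 CPM against at most 92.5 CPM. They were unevenly spread over wells: 17 of 38 held Fabp2, 10 Krt20 and 11 Clca3, and the 5 richest wells held 67.7, 85.2 and 89.1% of these UMIs. Clca3 had 170 UMIs in 12 of 51 pit wells of corpus replicate 4 as well, against 129 in corpus replicate 1. Cdx1, a factor of intestinal epithelium, was at 0 in pit wells of every plate, and Muc2, the intestinal mucin, at 0 in those of corpus replicate 1.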

How the data were processed

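The deposited tables give raw UMI counts per gene and well, 1 table per plate, whole numbers that the authors had not normalized, as the values themselves show. The genome build was mm9, per the submitters' processing notes, and which aligner and counter were used is not given in the sources used here. Pit wells and gene lists were chosen with earlier results of these data known, among them those for Sgk1 and Meis2, so no pattern here is independent support for those results.

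Spike-in rows were left out and wells with at least 1000 UMIs kept. Doublets were not called, because cells were placed singly by the sorter, and the same 384 wells recur on all 7 plates, so shared barcodes name wells and not cells. Counts were summed over the pit wells of a plate, scaled by trimmed means (30% and 5% trims), and tested as log2 CPM with a pseudocount of 2 by limma's moderated test (version 3.58.1, R 4.3.3, variance trend on), adjusted by Benjamini-Hochberg over all genes, at 0.05. Levels printed as CPM are unscaled. A gene was tested if it reached 10 counts at the median depth in a number of plates equal to the smaller region's, and 15 counts overall. A plate needed 10 pit wells. No count model was fitted, although the values are counts. The median 4-gene share and the share of Muc5ac in it were planned as tests and are given without one, since the rule uses these genes. Python 3.11.15, numpy 2.4.6, pandas 2.3.3, scipy 1.17.1 and matplotlib 3.10.9 did the rest, and the fits were tested on simulated data. Plate totals ran from 2646492 to 9511078 UMIs, and intervals cover counting error only. Columns of other samples left unused numbered 0.

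Named genes are the 25 highest and 10 lowest pit-to-other ratios at 100 CPM or more in pit wells or other wells, the 10 in each direction between rich and poor wells, the 10 of smallest p and the 10 largest called changes per direction between regions at 32 CPM or more without overlap, up to 4 members of each list and every member called, and 22 genes always named. Alternatives changed the pseudocount, scaling, filter, rule threshold, wells, plates, replicate block, plate set and UMI correction.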

Additional observations from a re-analysis of the deposited data

Results flagged for a closer look

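Of 19 groups of 4 plates looked at, 4 had a corpus plate far from the other 3. Chance gives about 1 in 20 only for genes picked without regard to these values. Sgk1, Emp1 and Il33 were picked by small p in the fit over 6 plates, which corpus replicate 2 did not enter. That rate therefore does not apply, and no excess over chance is drawn from the count. Sgk1 stood at 302 CPM in pit wells of corpus replicate 2, against at most 62.7 in the other corpus plates. Emp1 stood at 95.7 CPM in the same plate. Il33 stood at 86.1 CPM and Muc5ac at 4423 CPM in pit wells of corpus replicate 1. Between pit wells and other wells, the region difference of Sgk1 differed by 2.46 on the log2 scale with plate set as a covariate and by 2.36 in the 4 similar plates alone, and that of Znfx1 by 1.81 in the 4 similar plates. The difference was tested for both, with limma, and passed for neither over 6 plates.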

How the results depend on the processing

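The count of genes called between regions in pit wells was 0 over 6 plates, and 1, in each case Sgk1, with a pseudocount of 8, with CPM scaled to all UMIs or without the 4 rule genes, with no filter on low counts and with voom weights. It was 208 in the 4 similar plates alone, which are also the plates left without those rich in spike-ins, 36 with plate set as a covariate, 2 with the threshold at 20% (Il33 and Vars2), and 0 to 2 when a plate was left out. It stayed at 0 with a pseudocount of 0.5, thinned wells, the threshold at 5%, means over wells and the correction for the UMI ceiling. The count for the difference between pit and other wells was 0, and 2 in the 4 similar plates, 1 with plate set, 1 with the threshold at 20% (Mt2) and 0 to 1 with a plate left out (Clca3, without corpus replicate 3). The difference in the share of pit wells was -2.31 percentage points in the 4 similar plates and 4.61 with the threshold at 20%. The cause of these changes was not tested. For 20 named genes, 403 of 427 values under alternatives kept their direction. The Sgk1 difference ran from 2.08 to 2.89 over 23 settings and passed in 11. These counts include settings whose outcome was fixed. Leaving out corpus replicate 2 repeats the main fit, and plate set as a covariate leaves each difference itself unchanged. The 4 similar plates are counted again as the plates left without those rich in spike-ins, so the 11 include a repeat. The reversed values were -0.084 for Gkn1 (20%), -0.021 for Gkn2 (4 plates) and 0.21 for Foxq1 (thinned). Tff1 came to 0.011 (all UMIs), 0.049 (without rule genes), 0.16 (5%) and 0.037 (corrected), Psca to 0.024 (without rule genes) and 0.13 (5%), and Tff2 to -0.13 (5%). With a plate left out, Tff1 ran from -0.16 to 0.080, Psca from -0.31 to 0.22 and Tff2 from -0.22 to 0.45.

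With the replicate block, for which both regions share the numbers 1 and 3 among the fitted plates, 2 genes were called between regions in pit wells (Sgk1 and Atp4b) and 2 for the difference from other wells (Sgk1 and Rnase4). The blocked values were 0.069 for Tff1, 0.34 for Psca and -0.17 for Tff2. For the share of pit wells, where all 7 plates count, the block took the numbers 1, 2 and 3 and gave 6.17 percentage points. Deviations from the region means correlated at 0.48 for the plates numbered 1 and 0.32 for those numbered 3, but also at 0.35 for pylorus replicate 2 and corpus replicate 3, so the samples share only a number. The limits on depth are the 8354 UMIs of the median pit well of corpus replicate 1 and the 8 pit wells of corpus replicate 2.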
